A study of Mus musculus with 6 samples.

Results

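The extracellular matrix genes described here are 56 genes for collagens, laminins and nidogens, matrix glycoproteins, proteoglycans, matrix proteases with their inhibitors, and matrix-modifying enzymes. They were chosen by gene symbol, and 50 of the 56 had a named probe on the array. A member was kept where a probe had a detection p under 0.05, the scanner's measure of signal above background, on 3 or more of the 6 arrays. That left 35 of the 56 genes, among 12755 features tested in all.

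RNA came from neurospheres, which are balls of cells grown afloat from neural stem and progenitor cells, and each of 6 RNA samples was hybridised to 1 Illumina mouse whole-genome array. The cells were dissected from the subventricular zone, where neurons are born in adult brain, from mice 18 months old, and grown with EGF and FGF for 14 days. Secondary spheres gave 1 array of Wip1 transgenic (Wip1Tg) cells and 2 arrays of wild-type (wt) cells, and primary spheres gave 2 arrays of Wip1Tg and 1 of wt cells. All groups shared the age, medium and absence of treatment. Wip1 is the phosphatase encoded by Ppm1d, which acts on p53 and on stress and DNA damage kinases. The promoter that drives the transgene, and whether replicates came from separate animals or cultures, were not stated in the labels. The p-values therefore measure only the spread between these samples, which may be technical. Levels below are normalised log2 intensities of 1 probe, so they can be set against each other between arrays but not between genes.

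The extracellular matrix is the mesh of secreted proteins around cells. Basement membranes are sheets of type IV collagen, laminins, nidogens and the heparan sulfate proteoglycan perlecan, while brain tissue away from vessels is rich in hyaluronan-binding proteoglycans and tenascins. Matrix metalloproteinases and ADAMTS proteases cut these proteins, and the tissue inhibitors of metalloproteinases (TIMPs) restrain them. In the adult subventricular zone, stem cells touch basement membrane that reaches out from blood vessels.

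Median raw intensity was 150.88 to 168.44 per array and 17623 to 18699 probes were above background on each. Of the 35 kept members, 31 were above background on each secondary array and 35 on each primary array. The Ppm1d probe was at 10.24 on the Wip1Tg array and 10.13 and 9.98 on the wt arrays of secondary spheres, against 9.53 and 9.71 for Wip1Tg and 9.29 for wt primary spheres. Signal from all 4 probes of Xist, the RNA of the silenced X, exceeded background on the 3 secondary arrays and Wip1Tg primary 2. It did not on Wip1Tg primary 1 or wt primary 1, although the labels call the mice matched for gender. A probe of the Y chromosome gene Kdm5d exceeded background on those arrays alone, at 6.32 on Wip1Tg primary 1 and 6.82 on wt primary 1. The other Kdm5d probe did so on 0 arrays. The Y genes Uty and Eif2s3y were less clear, with a Uty probe above background on 4 arrays and an Eif2s3y probe on 1. Passage results are therefore also given for the 4 arrays with Xist signal, where the primary spheres have 1 array and none of wt cells. As the model also holds genotype, each passage difference there is Wip1Tg secondary 1 minus Wip1Tg primary 2, 1 array against 1. The wt arrays add nothing to that difference, and the spread within a group comes from the 2 wt secondary arrays alone. In bulk RNA, fewer cells of a type and less RNA per cell cannot be told apart.

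Several collagens of the fibrous connective tissue type were at or near background, while Col5a1, described below, was above it on all 6 arrays. Col1a1, Col1a2 and Col3a1, the chains of the major fibrillar collagens, were above background on 0 arrays, as were Col6a2, Lama4, Lamb1, Fbln5, Tnr, Thbs1, Thbs4 and Lum. Col11a1 and Mmp3 were above background on 2 arrays, Wip1Tg primary 1 and wt primary 1. Dcn, for the small proteoglycan decorin, and Lox, for a collagen cross-linking enzyme, were above background on 1 array each. These 15 genes have no fold change below, and Col6a3, Spp1, Mmp15, Adamts5, Serpine2 and Loxl2 had no probe named for them.

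The first comparison set secondary against primary spheres. Of the 35 kept members, 20 fell and 4 rose in secondary spheres relative to primary spheres (limma, Benjamini-Hochberg adjusted p under 0.05 over all features), and 11 did not pass. The 24 called are 68.6% of members, against 28.1% of all 12755 features. By direction 57.1% were lower and 11.4% higher, against 13.8% lower and 14.3% higher over all features. The median difference of the 35 was -0.94 on the log2 scale, against 0.04 over all features. In 17 members the fall was at least 2-fold (48.6%, against 5.57% of all features), and in 4 the rise was (11.4%, against 3.54%). In all 24 called members the secondary and primary arrays did not overlap, which also fixes the same sign in both genotypes. As the 24 were called on these same arrays, this is not a separate test. Without overlap 20 members were lower and 4 higher, against 21.8% lower and 25% higher of all features. Col5a2, Col6a1 and Thbs2 were detected on all primary arrays but on 0 secondary arrays (8.57% of members, against 1.93% of all features), so they entered the count only through the group in which they were high. On the 4 arrays with Xist signal 17 members were called, 13 lower and 4 higher, against 8.63% of all features called in either direction there.

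**Figure D1:**
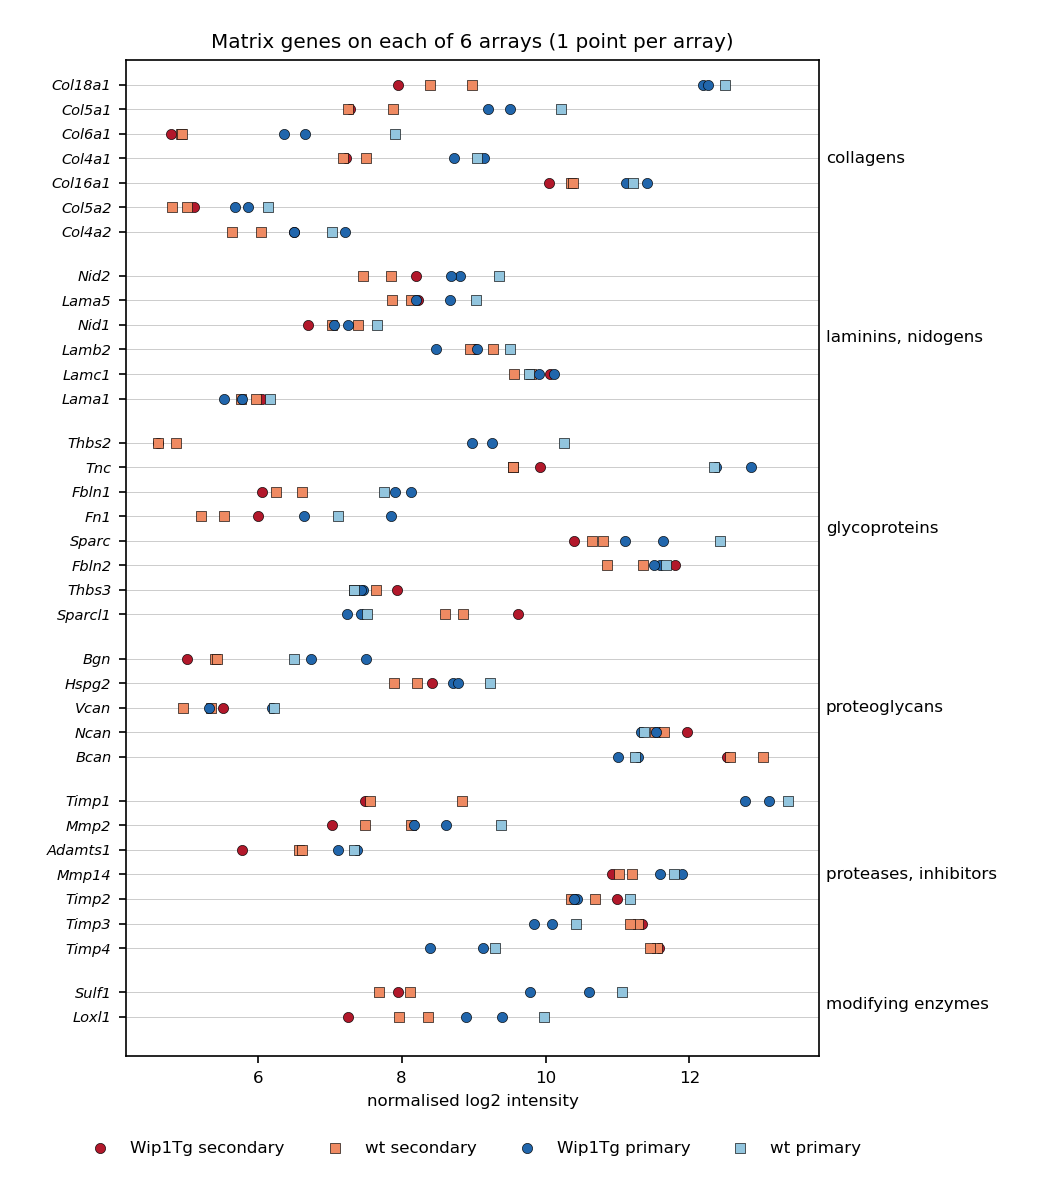
Normalised log2 intensity of the 35 kept matrix genes (rows, grouped by class) on the horizontal axis, with 1 point for each of the 6 arrays, coloured by passage and shaped by genotype. In most rows the 3 secondary points lie left of the 3 primary points, and in Sparcl1, Bcan, Timp3 and Timp4 they lie to the right.

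**Figure D2:**
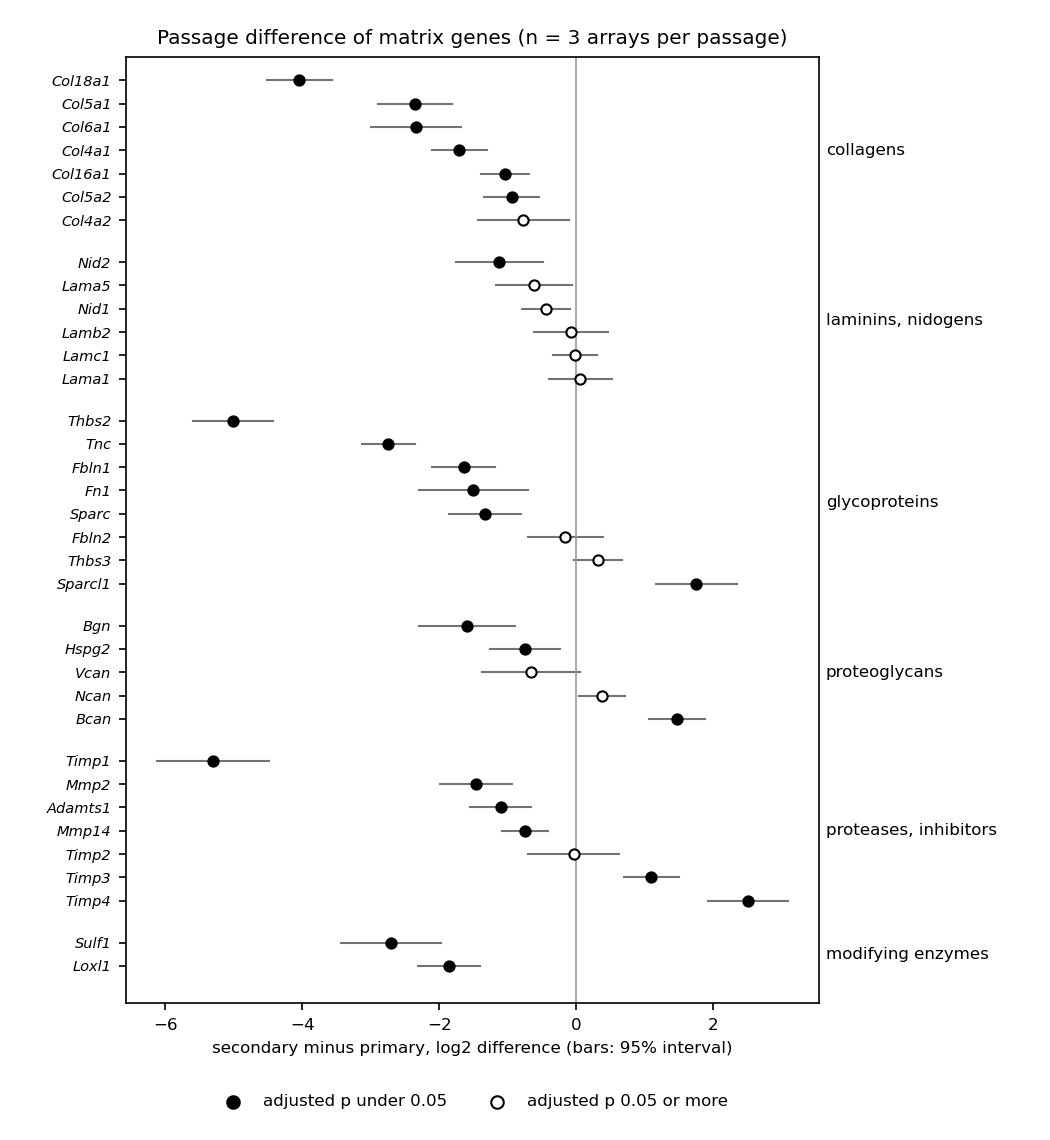
Passage difference (secondary minus primary, log2) of each kept matrix gene with its 95% interval, n = 3 arrays per passage, by class. Filled points passed the adjusted p of 0.05, and they number 20 to the left of 0 and 4 to the right.

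Most measured collagens fell. Of 7 measured collagens of 13 listed, 6 fell and 0 rose, with a median difference of -1.71 and a range of -4.05 to -0.77. Col18a1 encodes the core of a basement membrane collagen that carries heparan sulfate and releases endostatin. Its log2 intensities were 7.95 in Wip1Tg and 8.39 and 8.97 in wt secondary spheres, against 12.19 and 12.26 in Wip1Tg and 12.50 in wt primary spheres. The 2 passages lay far apart, and the difference was -4.05 (SE 0.198, 95% interval -4.52 to -3.57, 16.5-fold lower, adjusted p = 0.0001958). A second probe of Col18a1 gave -3.12. RefSeq (GRCm38.p6) lists 2 windows for starts of Col18a1, and the 100 bases before each are shown because this collagen had the widest passage difference. Which start the probes report was not tested. GC box letters (GGGCGG, or CCGCCC read on the other strand) are in capitals.
Col18a1, inner start, chr10:77113706-77113805, minus strand: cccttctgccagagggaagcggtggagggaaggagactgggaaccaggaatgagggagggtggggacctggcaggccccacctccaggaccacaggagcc
Col18a1, outer start, chr10:77166531-77166630, minus strand: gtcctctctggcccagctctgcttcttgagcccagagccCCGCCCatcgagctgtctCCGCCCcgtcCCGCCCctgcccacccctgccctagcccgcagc

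Col4a1 and Col4a2 encode the chains of the type IV collagen network of basement membranes. Col4a1 was at 7.22 in Wip1Tg and 7.18 and 7.51 in wt secondary spheres, against 9.14 and 8.73 in Wip1Tg and 9.04 in wt primary spheres. It fell by 1.71 on the log2 scale (SE 0.166, 3.26-fold lower, adjusted p = 0.001257), with no overlap between passages. Its partner Col4a2 was at 6.50 in Wip1Tg and 6.04 and 5.64 in wt secondary spheres, against 7.22 and 6.50 in Wip1Tg and 7.03 in wt primary spheres. Here the highest secondary array and the lowest primary array were level at 6.50, and the difference of -0.77 (SE 0.279, 95% interval -1.44 to -0.11) did not pass (adjusted p = 0.08199). On the 4 arrays with Xist signal it was 0.0070, and without wt primary 1 it was -0.35. These genes lie head to head on chromosome 8, and the RefSeq windows of their annotated starts overlap. The 22 bases that fall within the first bases of both annotated transcripts, 1 on each strand, are shown with the GC box in capitals.
Col4a1 and Col4a2, chr8:11312805-11312826, plus strand: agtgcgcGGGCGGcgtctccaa

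Col5a1, a chain of the type V collagen that seeds fibrils, was at 7.28 in Wip1Tg and 7.26 and 7.88 in wt secondary spheres, against 9.51 and 9.20 in Wip1Tg and 10.21 in wt primary spheres. The fall was 5.12-fold (log2 difference -2.36, SE 0.226, adjusted p = 0.001212), with every secondary array below every primary array. Col6a1, a chain of the beaded-filament collagen VI, was at 4.79 in Wip1Tg and 4.93 and 4.95 in wt secondary spheres, against 6.65 and 6.37 in Wip1Tg and 7.91 in wt primary spheres. Because its secondary values lay in the background, its fall is given as at least 3.16-fold lower (adjusted p = 0.002162). Col16a1, a fibril-associated collagen, fell by 1.03 (SE 0.147, adjusted p = 0.004424), and Col5a2 was at least 1.49-fold lower (adjusted p = 0.009546). Col5a2 was not called on the 4 arrays with Xist signal, at a difference of -0.75 against -0.94 on all arrays, nor without wt primary 1, at -0.66.

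Among laminins and nidogens most members did not pass. Of 6 measured members of 8 listed, 1 fell, 0 rose and 5 did not pass, with a median difference of -0.26 that ran from -0.42 to -0.08 as single arrays were left out (-0.42 without Wip1Tg secondary 1 and -0.08 without wt primary 1). Nid2, for nidogen, a linker between laminin and type IV collagen, was at 8.20 in Wip1Tg and 7.86 and 7.47 in wt secondary spheres, against 8.81 and 8.69 in Wip1Tg and 9.36 in wt primary spheres. The arrays did not overlap, and it fell by 1.12 (SE 0.266, 2.18-fold lower, adjusted p = 0.0241). Without wt primary 1 its difference was -0.55 (adjusted p = 0.1365), and on the 4 arrays with Xist signal -0.49 (adjusted p = 0.2927). Nid1 had a difference of -0.44 (SE 0.146, adjusted p = 0.06254). Lama5, an alpha chain of laminins in vessel and epithelial basement membrane, was at 8.23 in Wip1Tg and 7.87 and 8.14 in wt secondary spheres, against 8.67 and 8.20 in Wip1Tg and 9.03 in wt primary spheres. The passages overlapped by Wip1Tg arrays, and its difference was -0.62 (SE 0.233, adjusted p = 0.09266). Lamb2 was at 9.02 in Wip1Tg and 8.95 and 9.27 in wt secondary spheres, against 9.05 and 8.48 in Wip1Tg and 9.51 in wt primary spheres. These arrays overlapped fully, and its difference was -0.07 (SE 0.227, 95% interval -0.62 to 0.47, adjusted p = 0.8341), a sign that turned under other settings. Lamc1, the gamma chain shared by most laminins, differed by -0.02 (SE 0.135, adjusted p = 0.9393), and Lama1 by 0.06 (SE 0.192, adjusted p = 0.8452).

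Among matrix glycoproteins 5 fell, 1 rose and 2 did not pass, of 8 measured and 13 listed, and their differences spanned -5.01 to 1.75. Thbs2 encodes thrombospondin, a cell-matrix modulator that astrocytes secrete and that inhibits vessel growth. It was at 4.61 in Wip1Tg and 4.61 and 4.86 in wt secondary spheres, within background, against 8.98 and 9.25 in Wip1Tg and 10.25 in wt primary spheres. The fall was at least 18.1-fold (adjusted p = 0.0001954). The 150 bases before its annotated start are shown because it is the glycoprotein with the widest passage difference, with the TATA box letters TATAAA, found on the other strand as TTTATA, in capitals.
Thbs2, chr17:14694263-14694412, minus strand: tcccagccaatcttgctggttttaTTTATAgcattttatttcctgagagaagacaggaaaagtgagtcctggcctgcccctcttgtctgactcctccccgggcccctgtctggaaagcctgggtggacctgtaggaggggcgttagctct

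Tnc, for tenascin-C, a glycoprotein of the adult subventricular zone, was measured well above background on all arrays. It was at 9.93 in Wip1Tg and 9.55 and 9.55 in wt secondary spheres, against 12.37 and 12.86 in Wip1Tg and 12.34 in wt primary spheres, and fell 6.69-fold (log2 difference -2.74, SE 0.159, adjusted p = 0.0002909). All 6 kept Tnc probes were lower in secondary spheres, by differences of -2.88 to -0.83. Some of these probes were above background on only 3 or 4 arrays, with secondary values mostly near background. They met the filter largely through the primary arrays, so their shared sign is not a separate test. Fbln1, for the basement membrane and elastic fibre protein fibulin, was at 6.06 in Wip1Tg and 6.61 and 6.25 in wt secondary spheres, against 7.90 and 8.13 in Wip1Tg and 7.76 in wt primary spheres. The groups did not overlap, and it fell 3.12-fold (log2 difference -1.64, SE 0.192, adjusted p = 0.002183). Fn1, for fibronectin, fell by 1.50 (SE 0.333, adjusted p = 0.01935) and Sparc, for the collagen-binding protein osteonectin, by 1.34 (SE 0.22, adjusted p = 0.007332). On the 4 arrays with Xist signal neither was called, at -0.65 for Fn1 and -0.71 for Sparc. Without wt primary 1 neither was called either, at -1.25 for Fn1 and -0.97 for Sparc, and Fn1 was not called without Wip1Tg secondary 1, at -1.75. Fbln2 differed by -0.16 (SE 0.228, adjusted p = 0.6273) and Thbs3 by 0.31 (SE 0.146, adjusted p = 0.1539).

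Sparcl1, or hevin, is a relative of Sparc that astrocytes secrete at synapses, and it moved the other way. It was at 9.62 in Wip1Tg and 8.60 and 8.85 in wt secondary spheres, against 7.43 and 7.24 in Wip1Tg and 7.51 in wt primary spheres. The lowest secondary array lay above the highest primary array, and Sparcl1 rose 3.36-fold (log2 difference 1.75, SE 0.247, 95% interval 1.16 to 2.34, adjusted p = 0.004326).

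Proteoglycans moved in both directions, with 2 lower, 1 higher and 2 not passing of 5 measured and 7 listed. Bcan, for brevican, a hyaluronan-binding proteoglycan of brain matrix, was at 12.53 in Wip1Tg and 13.02 and 12.56 in wt secondary spheres, against 11.28 and 11.01 in Wip1Tg and 11.24 in wt primary spheres. It rose 2.77-fold (log2 difference 1.47, SE 0.17, adjusted p = 0.002132) with no overlap. Ncan, for neurocan of the same family, was at 11.97 in Wip1Tg and 11.53 and 11.65 in wt secondary spheres, against 11.54 and 11.32 in Wip1Tg and 11.37 in wt primary spheres. Wip1Tg primary 1 reached into the secondary range, and Ncan differed by 0.38 (SE 0.138, adjusted p = 0.08602), and Vcan, for versican, by -0.66 (SE 0.299, adjusted p = 0.1484). Bgn, for the small leucine-rich proteoglycan biglycan, was at 5.01 in Wip1Tg and 5.41 and 5.43 in wt secondary spheres, against 7.51 and 6.73 in Wip1Tg and 6.51 in wt primary spheres. On Wip1Tg secondary 1 it was not above background. Every primary array was above every secondary array, and Bgn fell 3.03-fold (log2 difference -1.60, SE 0.292, adjusted p = 0.01035). That call ended without Wip1Tg secondary 1 (difference -1.09, adjusted p = 0.09529). Hspg2, for perlecan, was at 8.43 in Wip1Tg and 7.89 and 8.21 in wt secondary spheres, against 8.71 and 8.79 in Wip1Tg and 9.23 in wt primary spheres. It lay just inside the threshold with a difference of -0.75 (SE 0.214, adjusted p = 0.04254), without overlap, and its call ended under 7 of 14 alternatives. Without wt primary 1 the difference was -0.32, and without Wip1Tg secondary 1 it was -1.18. Nid1 was just outside it.

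The TIMPs went 3 ways. Timp1, whose product inhibits most matrix metalloproteinases, was at 7.50 in Wip1Tg and 7.56 and 8.84 in wt secondary spheres, against 12.77 and 13.10 in Wip1Tg and 13.36 in wt primary spheres. It fell by 5.30 (SE 0.339, adjusted p = 0.0003564), and its other kept probe gave -5.45. Timp1 and Bgn lie on the X chromosome, and on the 4 arrays with Xist signal their differences were -5.61 for Timp1 and -1.72 for Bgn. The value for Bgn is limited by background, since Bgn was not above it on Wip1Tg secondary 1. Timp4, a brain and heart member of the family, was at 11.58 in Wip1Tg and 11.56 and 11.46 in wt secondary spheres, against 9.14 and 8.39 in Wip1Tg and 9.30 in wt primary spheres. It rose 5.68-fold (log2 difference 2.51, SE 0.241, 95% interval 1.93 to 3.08, adjusted p = 0.001212), with the secondary arrays close together and all above the primary ones. Timp3, the matrix-bound TIMP, was at 11.35 in Wip1Tg and 11.28 and 11.18 in wt secondary spheres, against 10.09 and 9.84 in Wip1Tg and 10.42 in wt primary spheres, and rose 2.14-fold (log2 difference 1.10, SE 0.168, adjusted p = 0.005748). The rise rests on the brighter of its probes, since the other gave 0.08 and their mean was not called (adjusted p = 0.06388). Without Wip1Tg secondary 1 it was not called either (adjusted p = 0.05109). Timp2 was at 10.99 in Wip1Tg and 10.69 and 10.35 in wt secondary spheres, against 10.44 and 10.40 in Wip1Tg and 11.17 in wt primary spheres. The passages overlapped, and its difference was -0.04 (SE 0.275, 95% interval -0.70 to 0.62, adjusted p = 0.9267), with a sign that turned under other settings.

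**Figure D3:**
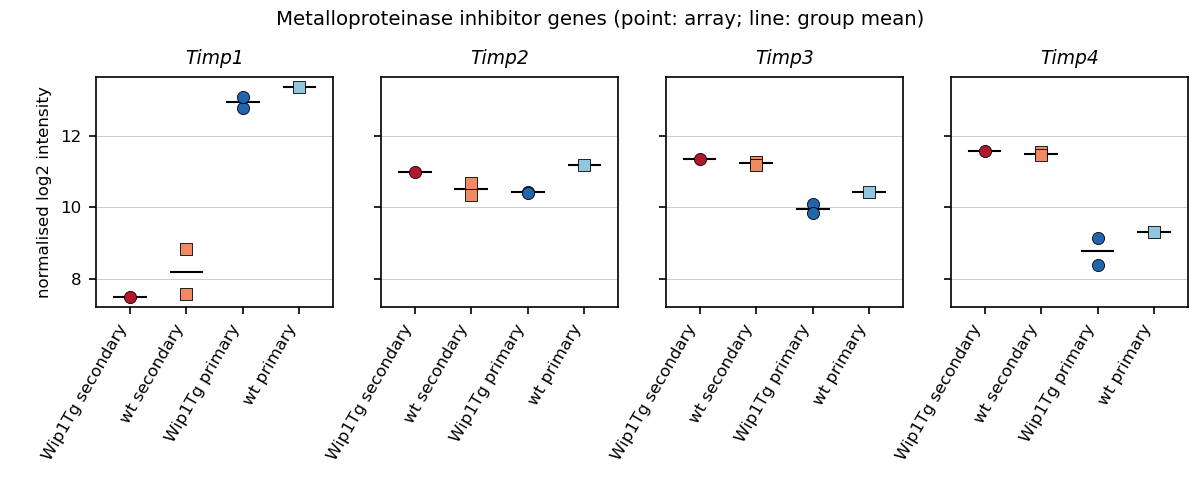
Normalised log2 intensity (vertical axis) of Timp1, Timp2, Timp3 and Timp4 on each array, with lines at group means, secondary spheres left of primary spheres and Wip1Tg left of wt in each. Timp1 is at 7.50 to 8.84 in secondary and 12.77 to 13.36 in primary spheres, Timp3 and Timp4 are higher in secondary spheres, and Timp2 overlaps.

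Each of Timp1, Timp3 and Timp4 lies within a synapsin gene (Syn1, Syn3 and Syn2) in the RefSeq annotation of GRCm38.p6. The synapsins, looked at after the TIMP values were seen, differed by -0.19 for Syn1 (adjusted p = 0.4061), 0.32 for Syn3 (adjusted p = 0.2419) and 1.12 for Syn2 (adjusted p = 0.003126). Of the 3 hosts, Syn2 was the 1 called, and it rose as Timp4 did. The 150 bases before each annotated TIMP start are shown because members of this family moved in opposite directions, with GC box letters in capitals.
Timp1, chrX:20870016-20870165, plus strand: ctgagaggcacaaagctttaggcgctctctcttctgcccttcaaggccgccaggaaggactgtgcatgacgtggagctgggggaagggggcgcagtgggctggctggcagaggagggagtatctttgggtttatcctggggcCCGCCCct
Timp3, chr10:86300262-86300411, plus strand: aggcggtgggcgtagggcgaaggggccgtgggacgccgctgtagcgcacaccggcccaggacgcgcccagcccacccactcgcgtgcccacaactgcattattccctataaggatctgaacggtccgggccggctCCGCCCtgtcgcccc
Timp4, chr6:115252206-115252355, minus strand: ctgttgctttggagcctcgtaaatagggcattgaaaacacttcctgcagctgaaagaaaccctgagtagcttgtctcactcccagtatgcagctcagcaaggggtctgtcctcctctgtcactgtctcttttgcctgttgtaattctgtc

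Timp1 and Timp3 each hold 1 GC box in these bases, 8 and 15 bases before the start at its first letter, and Timp4 holds none. In RefSeq windows of 300 bases around a start, GC box letters stood on either strand in 35.7% of 32851 windows, TATA box letters in 13.6% and AP-1 letters (TGANTCA) in 7.81%. Of 26 kept members with a window, 21 had a GC box, 4 a TATA box (Adamts1, Ncan, Thbs2 and Tnc) and 1 an AP-1 site (Col6a1). By gene rather than window the shares over all genes were 38.2%, 15.7% and 8.97%. Of the 14 lower members with a window 11 had a GC box, as had 2 of the 3 higher members and 8 of the 9 that did not pass.

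The proteases fell with Timp1. Mmp2, for gelatinase A, was at 7.03 in Wip1Tg and 7.50 and 8.13 in wt secondary spheres, against 8.17 and 8.62 in Wip1Tg and 9.38 in wt primary spheres. The highest secondary array lay just below the lowest primary array, and Mmp2 fell 2.77-fold (log2 difference -1.47, SE 0.219, adjusted p = 0.005236). Mmp14, the membrane protease that activates the Mmp2 proenzyme, fell by 0.74 (SE 0.14, adjusted p = 0.01147). Adamts1, which cuts versican and other proteoglycans, fell by 1.10 (SE 0.188, adjusted p = 0.008198), and its dimmer probe gave -0.41. On the 4 arrays with Xist signal the difference of Mmp2 was -1.59 (adjusted p = 0.0571) and that of Mmp14 was -0.66, so the sizes were close to those on all arrays while neither was called. Without wt primary 1 they were -1.37 (adjusted p = 0.05351) and -0.82, and again neither was called. Without Wip1Tg secondary 1 the calls of Mmp14 (-0.67) and Adamts1 (-0.75) ended. Of 7 measured proteases and inhibitors of 11 listed, 4 fell, 2 rose and 1 did not pass.

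Both measured matrix-modifying enzymes, of 4 listed, fell. Loxl1, a lysyl oxidase relative that cross-links elastin, was at 7.25 in Wip1Tg and 7.96 and 8.37 in wt secondary spheres, against 9.39 and 8.90 in Wip1Tg and 9.97 in wt primary spheres. Its arrays did not overlap between passages, and the fall was 3.61-fold (log2 difference -1.85, SE 0.189, adjusted p = 0.00146). Sulf1, which removes sulfate from heparan sulfate chains outside the cell, was at 7.95 in Wip1Tg and 7.69 and 8.11 in wt secondary spheres, against 10.60 and 9.78 in Wip1Tg and 11.07 in wt primary spheres. It fell 6.51-fold (log2 difference -2.70, SE 0.305, adjusted p = 0.001933), and its other kept probe gave -3.00.

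Genes that act on the matrix without being among the members were also counted, against 13.8% lower and 14.3% higher over all features. Of 15 measured genes of collagen synthesis, 11 fell and 0 rose (median difference -0.65). They included P3h2 (-2.64, adjusted p = 0.0005628) and P4ha2 (-1.79, adjusted p = 0.02409), hydroxylases that modify prolines of collagen chains, and Pcolce2 (-1.35, adjusted p = 0.01335), an enhancer of procollagen processing. Of 14 measured genes of TGF-beta and its matrix targets 9 fell and 1 rose (median -0.69), with Ltbp1, which stores latent TGF-beta in matrix, at -2.31 (adjusted p = 0.003093) and its relative Ltbp3 at -1.29 (adjusted p = 0.004414). Tgfbi, for a secreted adhesion protein that TGF-beta induces, was on 0 secondary arrays above background and was at least 1.93-fold lower (adjusted p = 0.00325). Matrix receptors were divided, with 7 lower and 3 higher of 20 measured. Those that fell furthest were the laminin receptor chain Itga7 (-2.48, adjusted p = 0.000196), the fibronectin receptor chain Itga5 (-2.33, adjusted p = 0.001495) and the hyaluronan receptor Cd44 (-2.24, adjusted p = 0.000948). Has2, a hyaluronan synthase, fell by 2.28 (adjusted p = 0.001797) and was the 1 gene called of 5 measured for hyaluronan and its link proteins. Among 17 other matrix proteases and regulators 5 fell, 1 rose and 11 did not pass, with Adamtsl4, an ADAMTS-like protein without protease activity, at -2.86 (adjusted p = 0.001003). Adamts4, an aggrecanase, was at -1.25 (adjusted p = 0.0113), and Plaur, the urokinase receptor, was at least 1.78-fold lower (adjusted p = 0.002061).

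**Figure D4:**
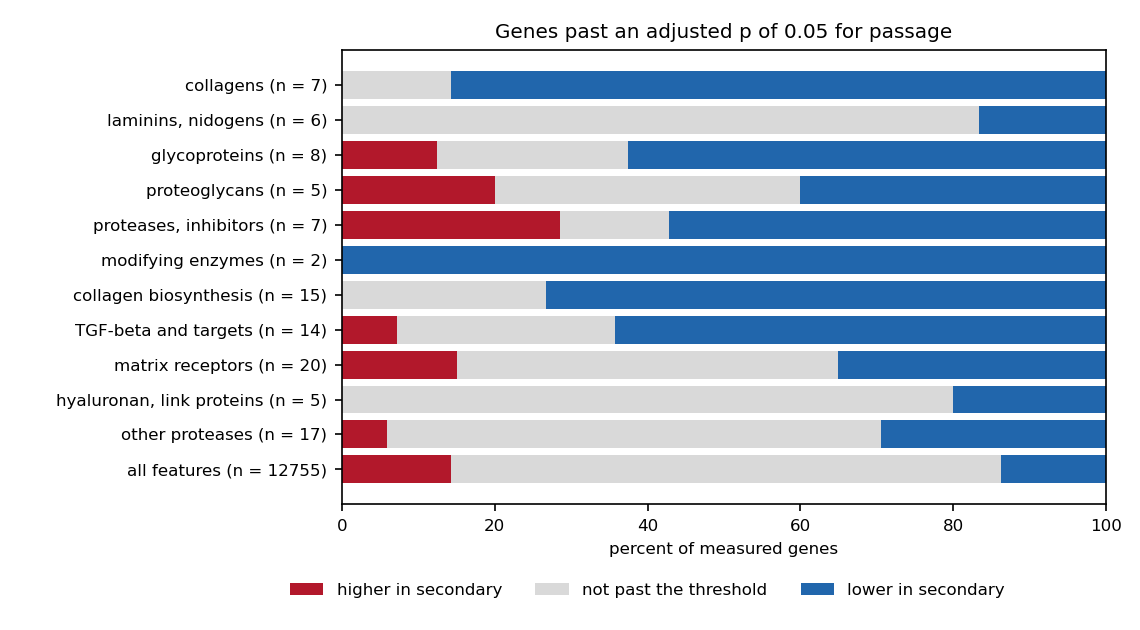
Percent of measured genes (horizontal axis) that were higher, did not pass or were lower (limma adjusted p of 0.05) in secondary relative to primary spheres, for each matrix class, each related list and all features. Collagens hold 6 lower of 7 measured and collagen synthesis 11 lower of 15, while laminins and nidogens hold 1 lower of 6.

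Cell type markers were counted for passage beside the matrix genes, and the part of each list in the result was not tested. The counts here and in the next paragraph stand against 28.1% of all features called, 14.3% higher and 13.8% lower. The stem and progenitor list and the oligodendrocyte list lie near that share. Of 10 astrocyte markers 7 rose and 1 fell, with Gjb6 at 4.92 (adjusted p = 0.000547), Aldoc at 2.11 (adjusted p = 0.00066) and, as the 1 that fell, Gfap at -1.38 (adjusted p = 0.005743). Their mean log2 level was 11.56 to 12.02 on secondary arrays, against 10.22 to 10.60 on primary arrays. Of 8 kept neural stem and progenitor markers 1 rose (Hes5, 1.62) and 1 fell (Vim, -0.90). The 6 kept neuroblast and neuron markers were at a mean of 7.16 to 7.30, against 7.50 to 7.91, and they moved both ways. Of them 2 fell, Nefm (-2.16) and Stmn2, which was above background on 0 secondary arrays and at least 2.42-fold lower. The 1 that rose was Dcx, above background on 0 primary arrays and at least 2.36-fold higher. The 8 kept oligodendrocyte lineage markers were at 9.30 to 9.95, against 9.23 to 10.00, and 2 fell (Sox10, -1.03, and Pdgfra, -0.95).

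Markers of fibroblasts, vessels, choroid plexus and microglia were detected in part. Of 16 fibroblast and mural markers 6 were kept and 1 fell (Thy1, -1.96, adjusted p = 0.04652), at a mean of 6.96 to 7.49 on secondary arrays, against 7.64 to 7.71 on primary arrays. Pdgfrb, Tagln, Anpep, Vtn, Postn, Fap and Twist1 were above background on 0 arrays, and Rgs5, Des and Kcnj8 on 1 or 2. Of 12 endothelial markers 3 were kept and 2 fell, Flt1 (-1.96, adjusted p = 0.007945) and Egfl7 (-1.02, adjusted p = 0.01899), at a mean of 6.26 to 6.49, against 6.90 to 7.41. The defining endothelial genes Pecam1, Cdh5, Tek, Tie1, Cldn5, Vwf and Erg were above background on 0 arrays, and Kdr and Emcn on 1 or 2. Of 8 choroid plexus and ependymal markers 3 were kept and 2 fell, Rarres2 (-1.94, adjusted p = 0.009331) and Foxj1 (-0.78, adjusted p = 0.04856), at 7.04 to 7.29, against 7.64 to 8.10, while Ttr, Kl, Folr1 and Tmem212 were above background on 0 arrays. Of 12 microglial markers 3 were kept and 0 were called, at 5.38 to 5.48, against 5.48 to 5.69, and 7 of the 12 were above background on 0 arrays.

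The genotype comparison asked whether the Wip1 transgene moved matrix genes. With limma 0 members passed for genotype, against 0% of all features. At an unadjusted p under 0.05, 8 of 35 members (22.9%) were lower in Wip1Tg (Col18a1, Col5a1, Col6a1, Loxl1, Mmp2, Nid1, Sparc and Thbs2) and 0 were higher, against 5.15% lower and 4.93% higher of all features. Of these, Col6a1 and Thbs2 were above background on 0 secondary arrays and were kept through primary spheres. They count through the primary contrast with its single wt array, at -1.39 for Col6a1 and -1.14 for Thbs2. The Wip1Tg minus wt difference was negative in 26 of the 35 (74.3%), against 48.3% of all features, with a median of -0.14. Without wt primary 1 that median was 0.05, as it was on the 4 arrays with Xist signal. These are the same estimate, since neither set holds a wt primary array and the genotype difference comes from secondary spheres alone. Without Wip1Tg secondary 1 the median was -0.43, which is the genotype difference within primary spheres alone.

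The members with the smallest genotype p were Loxl1, Mmp2, Nid1 and Sparc. Loxl1 differed by -0.87 (SE 0.189, 95% interval -1.32 to -0.42, adjusted p = 0.4345), with -0.91 in secondary and -0.83 in primary spheres, and each Wip1Tg array was below the wt arrays of its passage in the values given above. Mmp2 differed by -0.88 (SE 0.219, 95% interval -1.41 to -0.36, adjusted p = 0.4345), with -0.78 in secondary and -0.99 in primary spheres. Nid1 was at 6.70 in Wip1Tg and 7.03 and 7.39 in wt secondary spheres, and at 7.06 and 7.25 in Wip1Tg and 7.65 in wt primary spheres. In both passages the Wip1Tg arrays were the lower ones, and the difference was -0.50 (SE 0.146, 95% interval -0.85 to -0.15, adjusted p = 0.4451). Sparc was at 10.40 in Wip1Tg and 10.65 and 10.79 in wt secondary spheres, and at 11.63 and 11.11 in Wip1Tg and 12.42 in wt primary spheres. Its brightest probe differed by -0.69 (SE 0.22, adjusted p = 0.455), while the kept probes of Sparc ran from -0.85 to 0.11, with both signs. Without wt primary 1 the brightest probe differed by -0.32, and without Wip1Tg secondary 1 by -1.05.

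**Figure D5:**
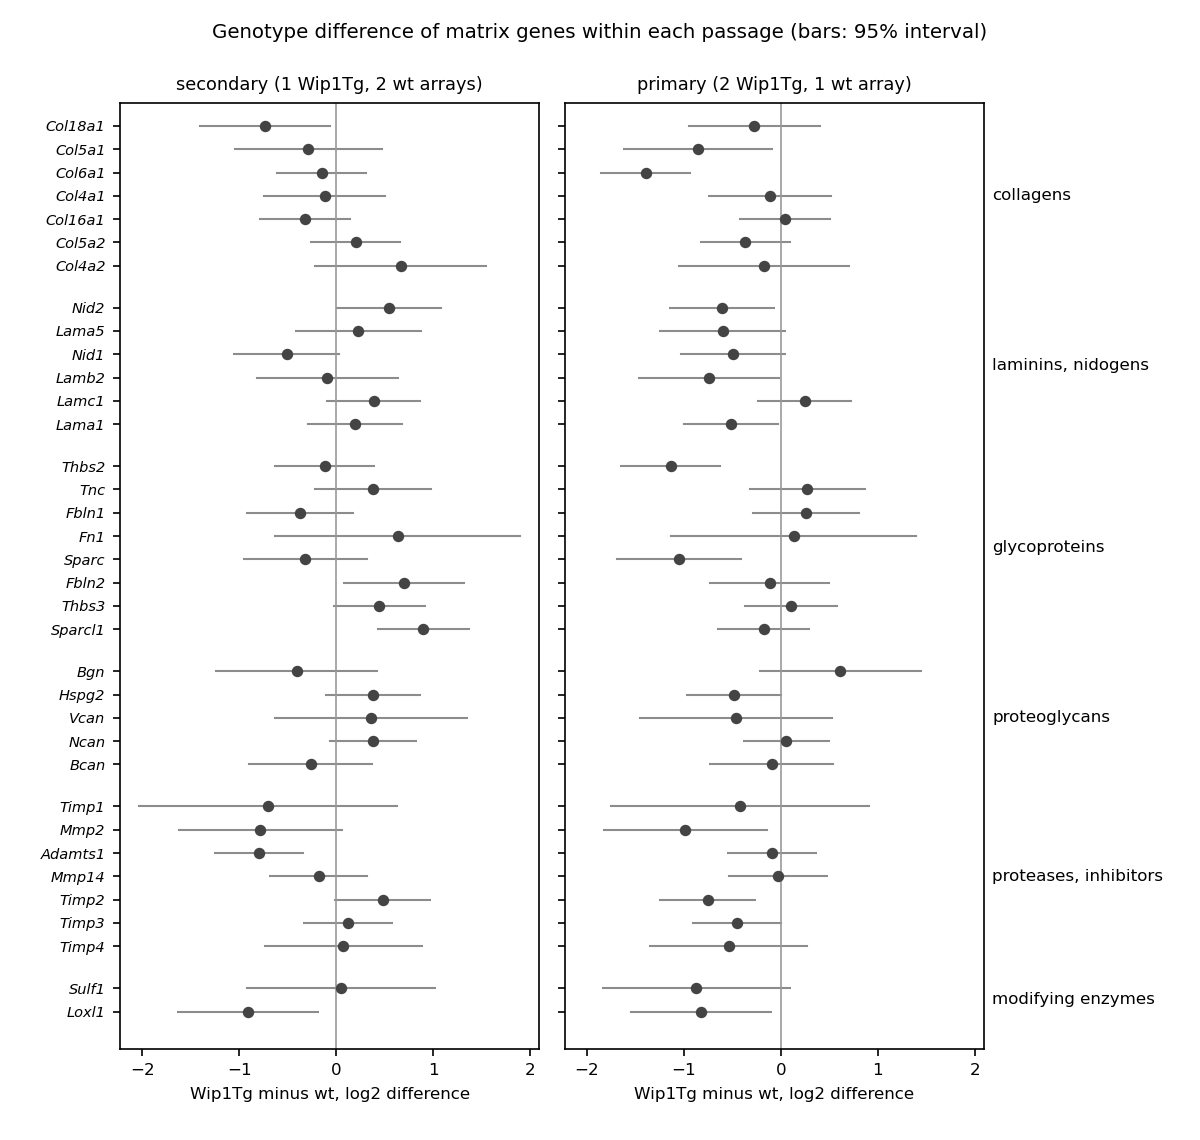
Genotype difference (Wip1Tg minus wt, log2) of each kept matrix gene within secondary spheres (left) and within primary spheres (right), with 95% intervals from the interaction model. In primary spheres most genes lie below 0 (median -0.43), and in secondary spheres they lie on both sides (median 0.05).

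Within primary spheres both Wip1Tg arrays were below the wt array in 22 of 35 members (62.9%, against 34.7% of all features) and above it in 5 (14.3%, against 38%). Bgn, Fbln1, Lamc1, Thbs3 and Tnc were those 5. Within secondary spheres the Wip1Tg array was below both wt arrays in 13 members (37.1%, against 38.1%) and above both in 17 (48.6%, against 39.3%). The primary contrast has a single wt array, so it cannot be told apart from what is particular to that sample. Members lower in Wip1Tg in each passage numbered 7 (Col18a1, Col6a1, Loxl1, Mmp2, Nid1, Sparc and Timp1, 20% against 14.1% of all features), and members higher in each numbered 3 (Lamc1, Thbs3 and Tnc, 8.57% against 16.2%). The secondary values of Col6a1 lay in the background, so its order there, counted in the 13 and the 7, is not a measured difference. The same holds for Col5a2, which is counted in the 17.

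The last comparison was whether the passage difference depended on genotype. With limma 0 members passed for the interaction, against 0% of all features, and 8 of 35 (22.9%) had an unadjusted p under 0.05, against 9.38% of all features. The smallest p values were those of Col6a1, Timp2 and Sparcl1. Col6a1 was within background on all secondary arrays, so its interaction restates the genotype difference of -1.39 in primary spheres and is given no value. The same holds for Thbs2, also among the 8, at -1.14 in primary spheres. Timp2 had a genotype difference of 0.48 in secondary and -0.76 in primary spheres (interaction 1.23, SE 0.273, adjusted p = 0.4891). Sparcl1 had 0.90 in secondary and -0.18 in primary spheres (interaction 1.08, SE 0.262, adjusted p = 0.4891). For Sparcl1 the Wip1Tg secondary array was the highest of the 6, while for Timp2 and Col6a1 wt primary 1 was.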

How the data were processed

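RNA from 6 neurosphere samples was measured on 1 Illumina mouse beadchip. Per the file headers, the deposited table pairs an intensity with a detection p-value at 45281 probes on every array. The intensity is linear and not background-corrected, as the values show. The authors' deposited value table of normalised intensity served as an alternative. Background was corrected with neqc of limma 3.58.1 in R 4.3.3 (offset 16), followed by quantile normalization and log2. Probes were kept at a detection p under 0.05 on 3 arrays, and the brightest kept probe stood for each gene. Gene names came from the platform annotation and GRCm38.p6 tables.

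Linear models with eBayes held genotype and passage as additive terms (3 residual degrees of freedom), or with their interaction (2), adjusted by Benjamini-Hochberg over 12755 features, and were tested on simulated data. Signs are secondary minus primary and Wip1Tg minus wt. A gene above background on no array of a group has a fold bound, set by the lowest signal above background. The number of arrays limits the precision.

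The members, lists and tests were chosen with earlier results of these data known. Genes were named by a rule: in each class the 4 (2 among modifying enzymes) with the smallest passage p, the 4 with the smallest genotype p and the 3 with the smallest interaction p, with the genotype and interaction genes taken over all members. In each related list the 3 widest called passage differences were named, and in each marker list up to 2. Genes behind counts of 5 or fewer and the synapsins were named after their values were seen. Alternatives were other normalizations, filters, probe rules, variance models, the other factor left out, the 4 arrays with Xist signal, and each array left out.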

Additional observations from a re-analysis of the deposited data

How the results depend on the processing

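Matrix genes called for passage numbered 17 to 28 under the 14 alternatives, against 24 as reported. The highest count, 28, came with median scaling, which moved the median passage difference of all features to -0.24. With single arrays left out the count was 17 (without wt primary 1) to 25, and on the 4 arrays with Xist signal it was 17. Of the 24 called members, 14 were called and all 24 kept their sign under every alternative run, and 10 lost the call in 1 or more. Genotype gave 0 called members under each alternative run and with each array left out (0 to 0). The interaction also gave 0 wherever it was fitted. It was not fitted without wt primary 1 or without Wip1Tg secondary 1, since each removal empties a group. Nor was it fitted on the 4 arrays with Xist signal or with the other factor left out. Median scaling moved the genotype median of all features to -0.19. Of the 11 members not called, 8 took the other sign under 1 or more alternatives (Col4a2, Lama1, Lama5, Lamb2, Lamc1, Fbln2, Thbs3 and Timp2), and the cause was not tested. On the 4 arrays with Xist signal Lama5 was at 0.031, Lamb2 at 0.53 and Timp2 at 0.60. With genotype left out Lamb2 was at 0.066 and Timp2 at 0.0070. With single arrays left out Lamb2 ranged from -0.40 to 0.25 and Timp2 from -0.66 to 0.58. No paired analysis was possible because the groups compared share fewer than 2 replicate numbers. The signal over background limits Col5a2, Col6a1 and Thbs2, whose secondary values are bounds. Bgn, Fn1 and Vcan were each above background on 2 secondary arrays, so their differences rest in part on background values.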
